A study of Mus musculus with 6 samples.

Results

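Oxidative phosphorylation was followed through 85 of the 12364 genes measured in the series. Members were chosen by their symbol on the array platform: every symbol starting with Nduf, Uqcr or Atp5, Sdha to Sdhd, Cyc1, and Cox followed by 4, 5, 6, 7 or 8. Each gene was read from the probe set with the highest mean over the 6 arrays, and probe sets shared by several genes were left out. Grouped by symbol, the members were 34 complex I subunits, 8 complex I assembly factors (Ndufaf genes) and 4 genes of complex II. A further 9 were of complex III, 13 of complex IV and 17 of complex V. The rule itself uses no measured response, but it was set with earlier results of these data known. Ndufa11, Ndufb4 and Ndufs6 were represented only by probe sets that name several genes and stayed out.

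The cells were mpkCCD clone 11, an immortalised line grown out of mouse kidney collecting duct cortex, so all samples came from a single clone. They were grown on membrane supports until the layer reached at least 5 kohm per cm2. The treated group (3 arrays) then received 0.1 nM dDAVP, an analog of vasopressin selective for its V2 receptor, for 5 days, and the control group (3 arrays) received vehicle for the same 5 days. Total RNA was hybridised to Affymetrix Mouse Genome 430 2.0 arrays, 1 per sample, and the values below are log2 signals as deposited. The labels call the samples biological replicates without saying whether they came from separate cultures or days, so p-values here reflect only how far these 6 arrays spread, which may be technical.

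The respiratory chain passes electrons from NADH (complex I) and succinate (complex II) through ubiquinone to complex III, then by cytochrome c to complex IV, which reduces oxygen. Complexes I, III and IV pump protons across the inner mitochondrial membrane, and complex V, the ATP synthase, makes ATP from the returning flow. In collecting duct cells this ATP feeds the sodium pump and, in intercalated cells, the proton pumps. All complexes except complex II also hold subunits encoded in mitochondrial DNA, which were not analysed here. An array of total RNA cannot tell less RNA per cell from fewer cells of a type.

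As a check of the labels, the water channel gene Aqp2 measured 6.70 ± 0.042 in vehicle and 10.85 ± 0.072 in dDAVP arrays (SD, n = 3), 17.8-fold higher (limma adjusted p = 1.66e-07). Of 15 principal cell markers 14 were measured, and 3 passed the test, all higher (Aqp2, Fxyd4 and Avpr2). The mean level of the markers measured for other types overlapped between groups for proximal tubule (4 of 11 genes, 4.62 to 4.81 over the arrays), thick limb and distal tubule (2 of 6, 4.31 to 4.50), fibroblast and muscle (2 of 7, 3.10 to 3.29) and endothelium (1 of 5, 2.96 to 3.23). Their probe sets differed in level: among the proximal tubule markers Lrp2 had a mean of 8.30, above the median of all probe sets (6.72), and Slc22a8, Aqp1 and Pck1 had 4.19, 3.43 and 2.99. Intercalated cell markers (5 of 13) averaged 7.12 to 7.22 in vehicle and 7.34 to 7.42 in dDAVP arrays. Leukocyte markers (2 of 6) averaged 4.19 to 4.38 and 4.46 to 4.51, with the defining marker Ptprc at a mean of 3.21. No marker outside the principal cell list passed in limma (0), while 3 had an unadjusted p below 0.05. These were Atp6v1b1 and Atp6v0a4, 2 of the 5 intercalated cell markers, and Cd68, 1 of the 2 leukocyte markers. All 3 were higher with dDAVP, and 7.80% of all genes reached that p in either direction. Every dDAVP array lay above every vehicle array for 3 of the 5 intercalated cell markers (60%, against 10.1% of all genes). The part of the intercalated and leukocyte markers in the results below was not tested.

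The promoters of the members were described apart from any response. Nuclear respiratory genes are known to be controlled by NRF1, by ETS factors such as GABPA, by YY1 and by estrogen-related receptors, and dDAVP acts through cAMP, whose transcription factor CREB binds the cAMP response element (CRE). RefSeq promoters (GRCm38.p6, 250 bases before to 50 after the start) were found for 70 of the 85 members and searched for exact letters on both strands. The NRF1 letters GCGCATGCG were in 9 of the 70 (12.9%), against 1.95% of 27025 genes in the promoter table and 4.01% of the 10010 of them that were measured here. The YY1 letters AAGATGGC were in 10 (14.3%, against 3.19% and 5.13%), and the ETS letters CCGGAAG in 19 (27.1%, against 9.93% and 19.5%). The estrogen-related receptor letters TCAAGGTCA were in 2, Atp5g3 and Sdhd (2.86%, against 0.466% and 0.330%). The CRE letters TGACGTCA were in 3 (4.29%, against 2.03% and 3.53%), and the SP1 letters GGGCGG in 32 (45.7%, against 38.2% and 67.5%). Overlapping matches of different motifs were each counted, and 19 of the 70 members held none of these letters. These shares are a description of the letters in these windows.

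The promoter stretches with a CRE are shown because dDAVP signals through cAMP, and those of Cox6a1 and Atp5k as examples with NRF1 letters on both strands. Each is 100 bases on the strand of its gene, 5′ to 3′, ending at or before the gene's start, with the motif in capitals. In Cox6a1 and Atp5k the capitals cover 2 overlapping matches, 1 on each strand. The Ndufa10 stretch is chr1:92473772-92473871 (minus strand) and its motif begins 67 bases before the start. For Ndufb2 it is chr6:39592465-39592564 (plus strand, 14 bases before), and for Uqcrfs1 chr13:30545317-30545416 (minus strand, 29 bases before). For Cox6a1 it is chr5:115349067-115349166 (minus strand, 162 bases before), and for Atp5k chr5:108434400-108434499 (minus strand, 50 bases before).
Ndufa10: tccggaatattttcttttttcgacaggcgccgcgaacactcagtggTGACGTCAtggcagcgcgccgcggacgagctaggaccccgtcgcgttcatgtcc
Ndufb2: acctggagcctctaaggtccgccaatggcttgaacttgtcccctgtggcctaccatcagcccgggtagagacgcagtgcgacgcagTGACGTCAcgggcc
Uqcrfs1: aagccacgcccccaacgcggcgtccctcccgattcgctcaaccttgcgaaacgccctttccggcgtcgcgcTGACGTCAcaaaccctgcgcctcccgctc
Cox6a1: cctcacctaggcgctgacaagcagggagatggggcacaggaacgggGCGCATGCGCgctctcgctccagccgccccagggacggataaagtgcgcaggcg
Atp5k: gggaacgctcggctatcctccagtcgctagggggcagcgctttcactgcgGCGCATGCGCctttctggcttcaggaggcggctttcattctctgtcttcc

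With dDAVP, no member of oxidative phosphorylation passed the test. By limma at a Benjamini-Hochberg adjusted p below 0.05 over 28225 probe sets, 0 of the 85 members were called, where 0.291% of all genes were called, and the lowest adjusted p among the members was 0.375. Trended and robust priors also called 0 members. At an unadjusted p below 0.05 there were 2 members, 1 higher (Cox7c) and 1 lower (Ndufaf6), which is 2.35% of them against 7.80% of all genes. Every dDAVP array lay above every vehicle array for 4 members (4.71%, against 10.1% of all genes) and below for 2 (2.35%, against 5.13%). The members' changes ranged from -0.16 to 0.27 on the log2 scale. All 3 of these shares lay below those of all genes.

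The intervals give, for the values as deposited, the sizes of change that the spread of these arrays leaves possible for each gene. They are not adjusted for the number of genes and do not cover the choice of scaling. With scaling to the hybridisation controls the median change of the members was 0.18, and the counts below hold for the deposited values. For 75 of the 85 members (88.2%) the 95% interval of the change lay wholly within 1.2-fold either way, which is 0.26 log2 units. The same held for 61.8% of all genes and for 76.1% of genes whose probe set lay above the median level of all probe sets. The 10 members whose interval crossed that bound were Ndufa1, Ndufa5, Ndufc1, Ndufs5, Ndufaf6, Ndufaf8, Uqcrb, Uqcrq, Cox7c and Atp5k. The lowest bound of any interval was -0.32 (Ndufc1) and the highest 0.44 (Cox7c). The median standard error was 0.068 for members and 0.072 for all genes. Of the members 72 had a mean level above 9 and 7 a level below 7, and 80 lay above the median of all probe sets.

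**Figure D1:**
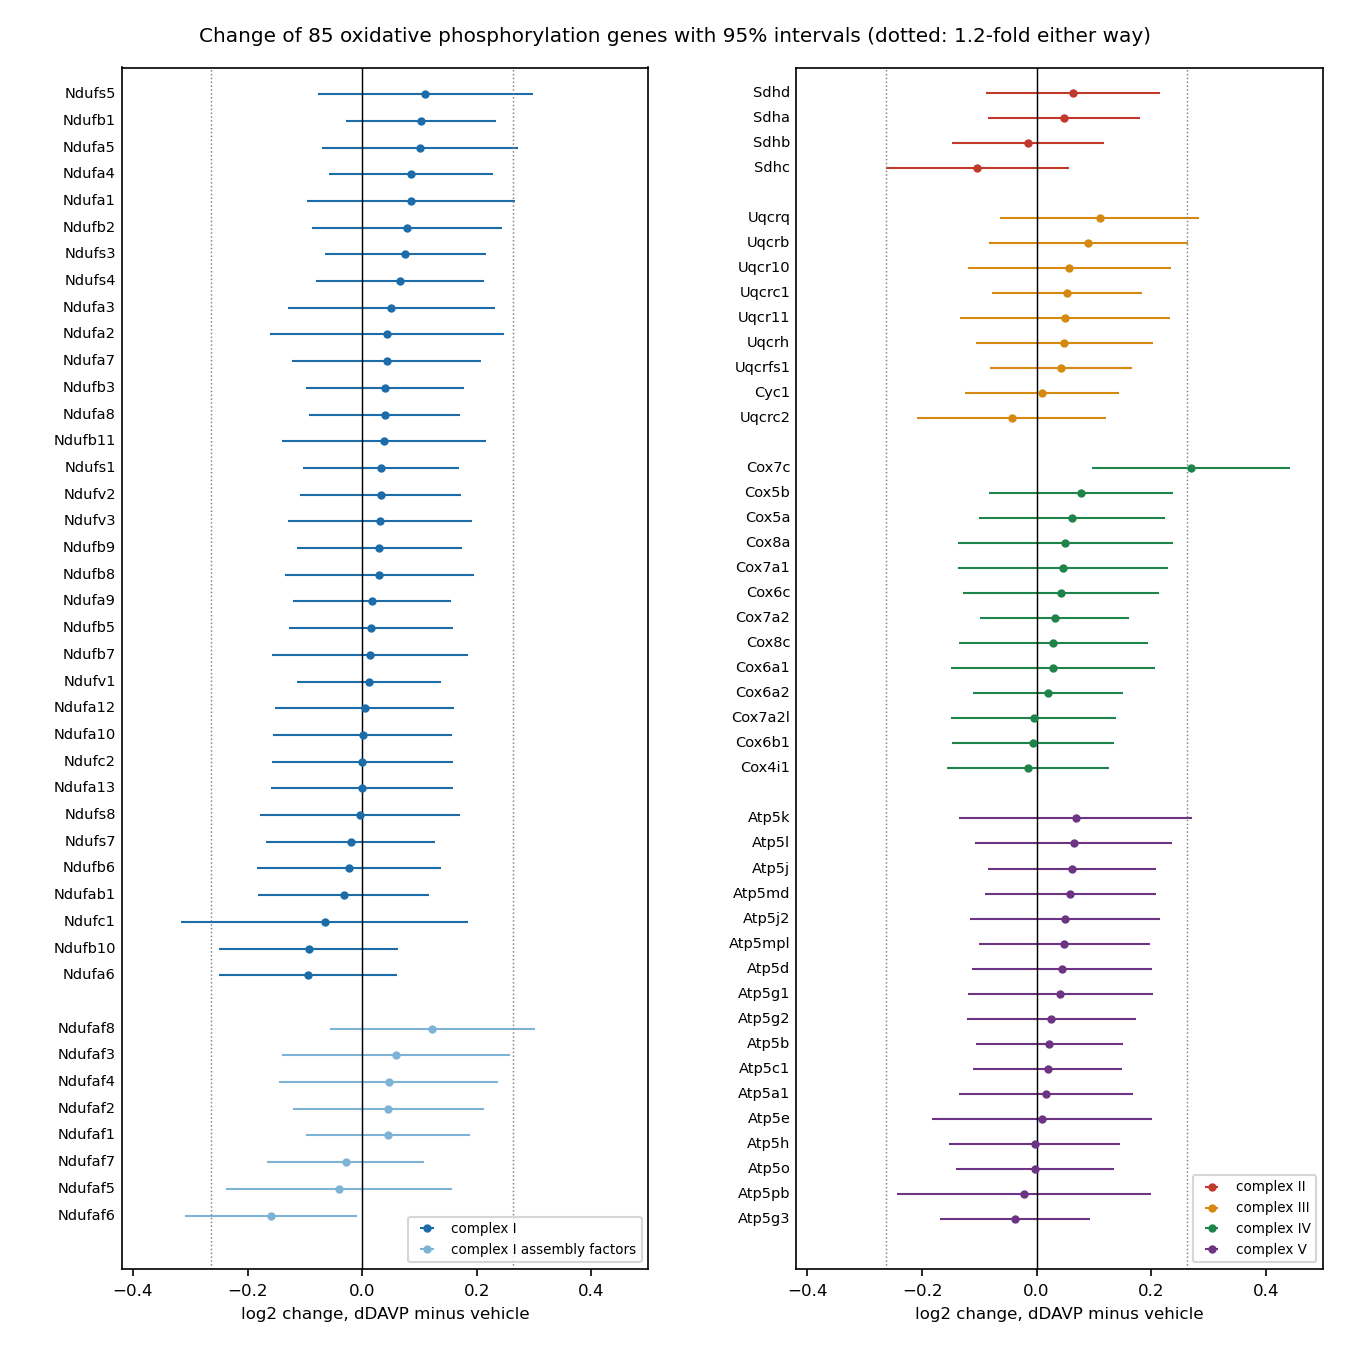
Log2 change (dDAVP minus vehicle, x axis) of each of the 85 members with its 95% limma interval as a line, grouped by complex and ordered by change, from 3 arrays per group. Dotted lines mark 1.2-fold either way. Only Cox7c and Ndufaf6 have an interval that leaves out 0, and 75 intervals lie between the dotted lines.

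Small positive values outnumbered negative ones. A positive change was seen in 65 members and a negative one in 20, so 76.5% were positive against 55.4% of all genes. The median change was 0.034 for the members and 0.012 for all genes. Scaling moved both together: 84 members were positive with the arrays scaled to the hybridisation controls, where the median of all genes moved to 0.16, 58 with median centring and 51 with scaling to the poly-A controls. These scalings shift all genes of an array alike, so the gap of 0.022 between the medians is the same in them by construction. The lean shrank most without vehicle replicate 1 and also shrank without dDAVP replicate 3, while it grew without vehicle replicate 3. The mean level of the 85 members was 10.16, 10.21 and 10.27 in vehicle replicates 1, 2 and 3 and 10.24, 10.21 and 10.27 in dDAVP replicates 1, 2 and 3. Vehicle replicate 1 was the lowest and vehicle replicate 3 the highest, so the vehicle arrays spanned the dDAVP arrays.

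Vehicle replicate 1 held the lowest of the 6 values in 51 of the 85 members (60.0%), against 24.6% of all genes. Without it, 40 members were positive and 45 negative, with a median of -0.0013 against 0.0064 for all genes. Without vehicle replicate 3, 75 were positive and 10 negative, with a median of 0.052. Without dDAVP replicate 3, 55 were positive and 30 negative, with a median of 0.019 against 0.012 for all genes, and without each of the other 3 arrays the member median lay between 0.038 and 0.042. In every such fit 0 members were called. In vehicle replicate 1 the hybridisation controls averaged 10.69, above the 10.42 to 10.59 of the others, and the poly-A controls 8.02, below the 8.06 to 8.22 of the others. Its 3′ excess of beta-actin signal, 0.69, lay within the range of the 6 arrays (0.67 to 0.72). The part of these measures in the member values was not tested.

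**Figure D2:**
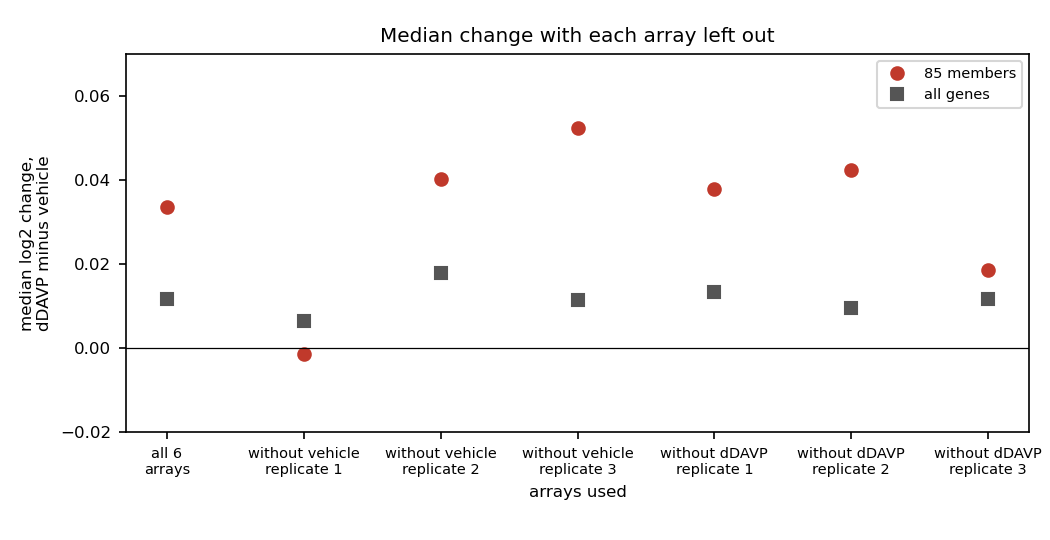
Median log2 change (dDAVP minus vehicle, y axis) of the 85 members (circles) and of all 12364 genes (squares), with all 6 arrays and with each array left out (x axis). The member median falls from 0.034 to -0.0013 without vehicle replicate 1, and the median of all genes stays between 0.0064 and 0.018.

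Complex I takes electrons from NADH, and its 34 subunits included 27 positive changes and 7 negative ones. The median was 0.031, the range -0.09 to 0.11, and none passed (0) or reached an unadjusted p below 0.05 (0). The mean of the 34 was 10.21, 10.27 and 10.34 in vehicle replicates 1, 2 and 3 and 10.30, 10.26 and 10.33 in the dDAVP arrays, so the groups overlapped. The flavoprotein subunit Ndufv1, which holds the NADH site, measured 11.44, 11.46 and 11.47 in vehicle and 11.48, 11.47 and 11.45 in dDAVP arrays. Its change was 0.01 ± 0.054 (SE), with an interval of -0.11 to 0.14. Among subunits that carry iron-sulfur clusters, the change was 0.03 ± 0.059 for Ndufs1, 0.03 ± 0.061 for Ndufv2, -0.02 ± 0.064 for Ndufs7 and -0.0033 ± 0.075 for Ndufs8. All these groups of arrays overlapped.

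Ndufs3, a core subunit of the arm that faces the matrix, measured 9.91, 10.02 and 10.03 in vehicle and 10.05, 10.05 and 10.09 in dDAVP arrays. The groups did not overlap, and the change of 0.08 ± 0.061 did not pass (limma adjusted p = 0.846). Ndufb1, an accessory subunit of the membrane arm, measured 6.78, 6.86 and 6.86 in vehicle and 6.92, 6.94 and 6.94 in dDAVP arrays (0.10 ± 0.056, adjusted p = 0.733). Ndufa6, an accessory subunit, went the other way, at 10.56, 10.60 and 10.75 in vehicle and 10.55, 10.54 and 10.53 in dDAVP arrays (-0.09 ± 0.067, adjusted p = 0.814). For Ndufs3 and Ndufa6 the nearest arrays of the 2 groups lay closer together than the SD of the vehicle arrays, 0.066 and 0.099. The 2 complex I subunits whose promoters hold the CRE letters, Ndufa10 and Ndufb2, changed by 0.00076 and 0.08. Ndufa4, named for complex I but since assigned to complex IV, changed by 0.09 ± 0.062. By its symbol it was counted here among the 34 complex I subunits.

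The 8 Ndufaf genes, which help assemble complex I and are not part of the finished enzyme, had 5 positive and 3 negative changes (median 0.046) and 0 calls. Ndufaf6 measured 5.93, 6.06 and 5.99 in vehicle and 5.89, 5.84 and 5.77 in dDAVP arrays. All dDAVP arrays lay below all vehicle arrays, the change was -0.16 ± 0.065, and it did not pass over all probe sets (unadjusted p = 0.0403, limma adjusted p = 0.600). Ndufaf8 had the largest positive change of the Nduf genes, 0.12 ± 0.077, with arrays at 8.99, 9.08 and 9.14 in vehicle and 9.16, 9.11 and 9.32 in dDAVP, where the groups overlapped. With 1 probe set read per gene, the largest negative and the largest positive change carrying the Nduf name thus both belonged to assembly factors. A further probe set of the subunit gene Ndufb2 changed by 0.16 ± 0.077, more than Ndufaf8. The mean level of Ndufaf6, 5.91, lay below the median of all probe sets (6.72).

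Complex II, succinate dehydrogenase, joins the citrate cycle to the respiratory chain, and all 4 of its genes were measured. The flavoprotein Sdha changed by 0.05 ± 0.057, the iron-sulfur subunit Sdhb by -0.01 ± 0.057, and the membrane anchors Sdhc and Sdhd by -0.10 ± 0.069 and 0.06 ± 0.065. Sdhc measured 9.78, 9.68 and 9.81 in vehicle and 9.60, 9.61 and 9.75 in dDAVP arrays, and Sdhd 9.98, 9.97 and 10.13 against 10.11, 10.06 and 10.10. The groups overlapped for both anchors, whose changes had opposite signs. The median over the 4 was 0.017, and the mean ran from 10.02 to 10.10 in vehicle and 10.03 to 10.07 in dDAVP arrays.

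Complex III passes electrons from ubiquinol to cytochrome c, and 8 of its 9 genes had a positive change (median 0.049, range -0.04 to 0.11, 0 calls). The Rieske iron-sulfur protein Uqcrfs1, whose promoter holds the CRE letters, measured 10.43 in each vehicle array and 10.47, 10.45 and 10.49 in dDAVP arrays. These groups did not overlap, and the change was 0.04 ± 0.054 (adjusted p = 0.916). Cyc1, the cytochrome c1 subunit, changed by 0.01 ± 0.058 and the core protein Uqcrc1 by 0.05 ± 0.056. The small subunit Uqcrq had the largest positive change of complex III, 0.11 ± 0.075, at 9.55, 9.60 and 9.78 in vehicle and 9.80, 9.71 and 9.74 in dDAVP arrays. The core protein Uqcrc2 had the only negative one, -0.04 ± 0.071. The mean level was 10.51, 10.54 and 10.61 in vehicle and 10.61, 10.56 and 10.64 in dDAVP arrays.

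Complex IV, cytochrome c oxidase, had 10 positive and 3 negative changes among 13 genes (median 0.031, 0 calls). Cox7c, a small nuclear-encoded subunit, measured 4.56, 4.67 and 4.42 in vehicle and 4.85, 4.80 and 4.81 in dDAVP arrays. All dDAVP arrays lay above all vehicle arrays, the change was 0.27 ± 0.074, 1.21-fold, and it did not pass (unadjusted p = 0.00703, limma adjusted p = 0.375). A second Cox7c probe set, at a mean of 3.37, changed by 0.03 ± 0.17. Neither Cox7c probe set reached the median level of all probe sets, 6.72. Without Cox7c the changes in complex IV lay between -0.01 and 0.08.

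Cox4i1 and Cox5a, which join complex IV early in its assembly, changed by -0.01 ± 0.061 and 0.06 ± 0.070, and Cox5b, a zinc-binding subunit, by 0.08 ± 0.069. Cox4i1 measured 12.20, 12.33 and 12.33 in vehicle and 12.27, 12.26 and 12.28 in dDAVP arrays, all 3 of the latter inside the vehicle range. Several subunits have a general and a tissue-restricted isoform, and no isoform of either kind passed. The general forms Cox6a1, Cox7a2 and Cox8a changed by 0.03 ± 0.077, 0.03 ± 0.056 and 0.05 ± 0.081. The heart and muscle forms Cox6a2 and Cox7a1 changed by 0.02 ± 0.057 and 0.05 ± 0.079, and the testis form Cox8c by 0.03 ± 0.071. The mean levels of Cox6a2 and Cox7a1, 5.88 and 5.34, lay below the median of all probe sets (6.72), and Cox8c, at 6.77, lay close to it. Cox6a1, Cox7a2 and Cox8a had 13.01, 12.27 and 11.05. Cox6a2 stayed between 5.85 and 5.92 in all 6 arrays. Cox6b1 changed by -0.0061 ± 0.061 and Cox7a2l, which joins complexes III and IV into supercomplexes, by -0.0049 ± 0.062. Other isoforms such as Cox4i2 and Ndufa4l2 were not analysed here.

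Complex V, the ATP synthase, had 13 positive and 4 negative changes among 17 genes, with a median of 0.026, a range of -0.04 to 0.07 and 0 calls. Its catalytic beta subunit Atp5b measured 12.87, 12.82 and 12.86 in vehicle and 12.89, 12.88 and 12.84 in dDAVP arrays, a change of 0.02 ± 0.056 with an interval of -0.11 to 0.15. The alpha subunit Atp5a1 changed by 0.02 ± 0.065 and the gamma shaft Atp5c1 by 0.02 ± 0.056. The genes for the membrane ring, Atp5g1, Atp5g2 and Atp5g3, which encode the same mature protein, changed by 0.04 ± 0.070, 0.03 ± 0.064 and -0.04 ± 0.056. Atp5k, the e subunit that helps ATP synthase form dimers, had the largest positive change, 0.07 ± 0.088, with an NRF1 motif in its promoter. It measured 10.89, 11.11 and 11.20 in vehicle and 11.09, 11.11 and 11.21 in dDAVP arrays, and vehicle replicate 1 was the lowest. The groups overlapped for all 17 genes.

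**Figure D3:**
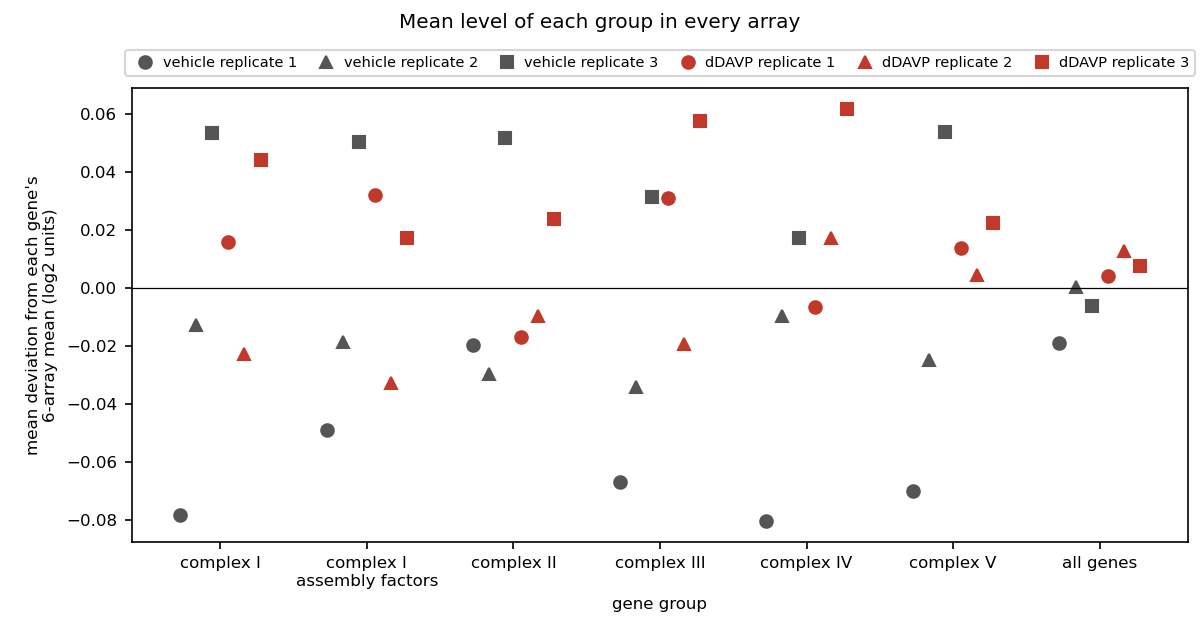
Mean deviation, in log2 units (y axis), of each array from every gene's own mean over the 6 arrays, for each complex and for all genes (x axis). Grey marks are vehicle and red marks dDAVP arrays, with the shape giving the replicate. In complexes I, III, IV and V vehicle replicate 1 is lowest, at -0.078, -0.067, -0.080 and -0.070, while vehicle replicate 3 lies at 0.017 to 0.054.

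More probe sets carried a member's symbol than the 85 read above. There were 168 in all: the 85, 75 further ones for a single gene and 8 that name several genes. None of the 168 passed in limma (0, where 0.216% of all probe sets were called). Beyond the first 85, 3 of the 75 and 0 of the 8 had an unadjusted p below 0.05. Of all genes, read from 1 probe set each, 7.80% did. For 22 of the 48 members with more than 1 probe set, the probe sets had changes of both signs. The 3 were chosen after their values were seen and came from Uqcrq (0.25 ± 0.074 at a mean level of 4.41, limma adjusted p = 0.407), Atp5g2 (0.19 ± 0.061 at 7.19, adjusted p = 0.465) and Atp5g1 (-0.29 ± 0.12 at 3.43, adjusted p = 0.606). Each differed in size from its gene's main probe set, which changed by 0.11, 0.03 and 0.04, and that of Atp5g1 differed also in sign. The probe sets shared by several genes, among them those of Ndufa11, Ndufb4 and Ndufs6, changed by -0.06 to 0.07.

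By promoter letters, the changes were as follows, with a median of 0.034 over all 85 members. The 9 members with the NRF1 letters changed by -0.04 to 0.07 (median 0.046), the 10 with the YY1 letters by -0.07 to 0.12 (0.040) and the 19 with the ETS letters by -0.02 to 0.12 (0.048). The 3 with the CRE letters changed by 0.00076 to 0.08 (0.043), the 32 with the SP1 letters by -0.09 to 0.12 (0.032) and the 2 with the estrogen-related receptor letters by -0.04 and 0.06 (0.012). These groups share members and were not tested against each other.

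Other genes of mitochondrial energy metabolism came from lists set for this work with earlier results of these data known. Among assembly factors, electron and metabolite carriers outside the rule's names, 42 of 46 were measured, and 0 passed. At an unadjusted p below 0.05 there were 4 higher and 1 lower (5.51% of all genes were higher and 2.30% lower at that p), with a median of 0.044. The dDAVP arrays lay above all vehicle arrays for 11 of the 42 (26.2%) and below for 1 (2.38%), against 10.1% and 5.13% of all genes. The mean of the 42 ran from 8.44 to 8.49 in vehicle and from 8.51 to 8.53 in dDAVP arrays, without overlap. The mean of all genes did not overlap either, at 7.292 to 7.311 and 7.315 to 7.324. Sco2, a copper chaperone for complex IV, measured 6.999, 6.93 and 6.91 in vehicle and 7.19, 7.25 and 7.26 in dDAVP arrays. These groups did not overlap, and the change was 0.29 ± 0.058 (limma adjusted p = 0.194). It passed in 2 alternatives, when dim probe sets were dropped (level at or below the median; adjusted p = 0.0472) and with scaling to the hybridisation controls (0.43, adjusted p = 0.0468), and had adjusted p between 0.0598 and 0.971 in the others. Ttc19, a factor for complex III, measured 7.19, 7.40 and 7.19 in vehicle and 7.45, 7.64 and 7.59 in dDAVP arrays (0.30 ± 0.085, adjusted p = 0.384).

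Of the regulators of mitochondrial biogenesis 18 of 19 were measured, with 6 positive changes, a median of -0.037 and 0 calls. The groups did not overlap for 4 of them, 1 higher (5.56%, against 10.1% of all genes) and 3 lower (16.7%, against 5.13%). The mean of the 18 ran from 8.08 to 8.12 in vehicle and from 8.04 to 8.09 in dDAVP arrays, where the groups overlapped. Ppargc1a, which encodes the coactivator PGC-1alpha of nuclear respiratory genes, measured 7.39, 7.41 and 7.55 in vehicle and 7.09, 7.22 and 7.19 in dDAVP arrays. All dDAVP arrays were lower, and the change of -0.28 ± 0.071 did not pass (adjusted p = 0.308). Gabpb1, the partner of the ETS factor GABPA, measured 8.16, 8.04 and 7.98 in vehicle and 7.93, 7.84 and 7.96 in dDAVP arrays (-0.15 ± 0.070, adjusted p = 0.652). No other gene of this list had an unadjusted p below 0.05 besides Ppargc1a.

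In the pyruvate dehydrogenase and citrate cycle list 16 of 17 genes were measured, with a median of 0.050, 0 calls and 0 genes at an unadjusted p below 0.05. Their mean ran from 9.60 to 9.65 in vehicle and from 9.63 to 9.68 in dDAVP arrays, where the groups overlapped. For 4 of the 16 (25.0%) all dDAVP arrays lay above all vehicle arrays, and for 0 below, against 10.1% and 5.13% of all genes. The genes of this list with the lowest p were Idh3b, a subunit of isocitrate dehydrogenase (0.11 ± 0.060), and Pdhx, which binds E3 in the pyruvate dehydrogenase complex (0.10 ± 0.067). In glycolysis 16 of 21 were measured, with 4 positive and 12 negative changes, a median of -0.037 and 0 calls. The glycolysis mean ran from 10.16 to 10.25 in vehicle and from 10.13 to 10.22 in dDAVP arrays, where the groups overlapped. Hexokinase 2 (Hk2) was at 8.31, 8.50 and 8.30 in vehicle and 8.55, 8.59 and 8.51 in dDAVP arrays (0.18 ± 0.072, adjusted p = 0.586). The glucose transporter Slc2a1 was at 10.20, 10.16 and 10.05 in vehicle and 9.96, 10.00 and 10.00 in dDAVP arrays (-0.15 ± 0.063, adjusted p = 0.619). For both the groups did not overlap, in opposite directions, and both had an unadjusted p below 0.05. Without overlap this is 1 of the 16 higher (6.25%, against 10.1% of all genes) and 1 lower (6.25%, against 5.13%). By unadjusted p it is 12.5% of the list, against 7.80% of all genes. Scaling to the hybridisation controls left Slc2a1 at -0.00067 and Hk2 at 0.33.

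**Figure D4:**
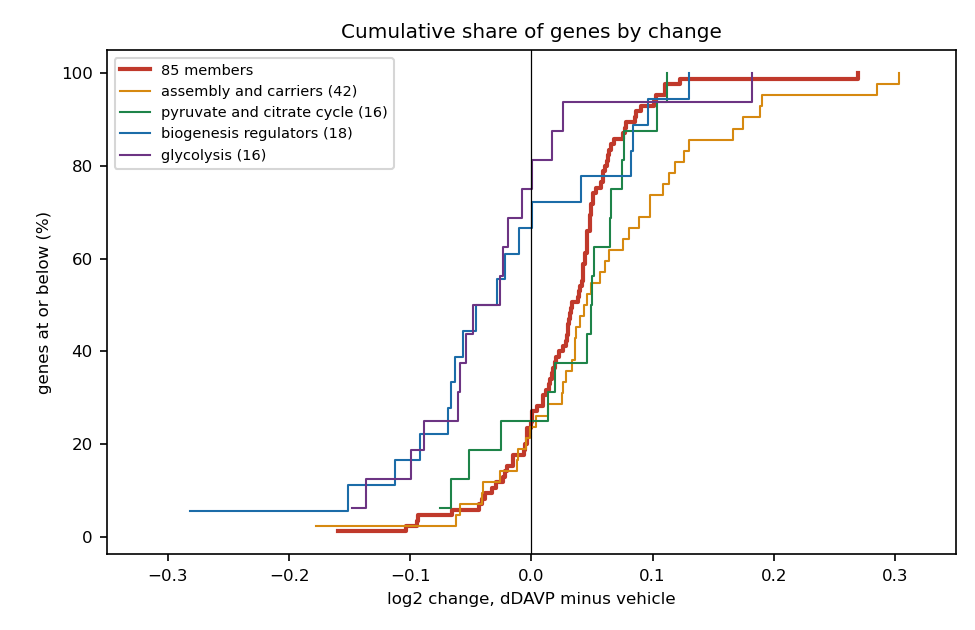
Cumulative percent of genes (y axis) at or below each log2 change (dDAVP minus vehicle, x axis) for the 85 members and for the genes measured in 4 further lists of energy metabolism. The member curve crosses its middle at 0.034, the biogenesis and glycolysis curves at -0.037, and no gene drawn passed the test. The array means of the biogenesis and glycolysis lists overlapped between vehicle and dDAVP.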

How the data were processed

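Gene expression was measured in 6 samples of mpkCCD clone 11 cells, 3 with vehicle and 3 with dDAVP. The values are log2 signals per probe set as deposited by the authors. MAS5, RMA and Affymetrix Expression Console 1.1 are listed in the submitters' processing notes; the method behind these values was not given in the sources used here. No further normalization was applied. Array medians lay within 0.043 of each other, correlations between arrays were 0.996 to 0.998, and the number of arrays limits the precision.

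After leaving out 62 control probe sets, limma 3.58.1 (R 4.3.3; lmFit and eBayes, 4 residual degrees of freedom) compared dDAVP with vehicle over 28225 probe sets, with Benjamini-Hochberg adjustment over all of them and a threshold of 0.05. SE and intervals are limma's moderated ones. Genes were named from the platform annotation, using probe sets with a single symbol, and all 85 members matched RefSeq by Entrez ID. Core and catalytic subunits, isoforms, the members with the lowest p or separate groups, and the genes with the lowest p in each further list were named. Members and lists were chosen with earlier results of these data known. Alternatives covered probe set choice, centring, control scaling, quantile normalization, level filter, prior, replicate block and each array left out. Deviations of same-numbered samples correlated at 0.20, 0.046 and -0.052 over all probe sets and at 0.29, 0.30 and 0.20 over the members; the labels name no shared source and the first 3 are not all above 0.1, so samples were not paired.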

Additional observations from a re-analysis of the deposited data

How the results depend on the processing

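No alternative called a member (0 of 85, or of the 80 left above the median level), and Aqp2 kept its call in all of them (4.11 to 4.18 on the log2 scale with an array left out). The number of members at an unadjusted p below 0.05 in limma was 0 with probe sets above the median level, 1 with the replicate block, 1 with poly-A scaling, 1 with a trended prior, 12 with scaling to the hybridisation controls, and 1 to 2 with an array left out. The replicate block lowered the probe sets called from 61 to 24; in this balanced design it cannot move a change. Within same-numbered pairs the mean level was higher with dDAVP in 3 of 3 for complexes III and IV, 2 of 3 for II and V and 1 of 3 for I. The mean of all genes was also higher with dDAVP in every such pair. It was 7.292, 7.311 and 7.305 in vehicle replicates 1, 2 and 3 and 7.315, 7.324 and 7.319 in the dDAVP arrays. The labels name no shared source for these pairs. Scaling to the hybridisation controls moved the medians of complexes I, II, III, IV and V to 0.18, 0.16, 0.20, 0.18 and 0.17, since those controls averaged 0.15 lower in dDAVP arrays. With an array left out the medians ran from -0.0045 to 0.052 (I), 0.0023 to 0.030 (II), 0.030 to 0.099 (III), -0.018 to 0.056 (IV) and -0.0032 to 0.050 (V).

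Some changes turned sign. With all probe sets of a gene averaged this held for Atp5c1 (-0.066), Atp5g1 (-0.12), Cox6b1 (0.048), Cox7a2l (0.016), Ndufs7 (0.018) and Ndufs8 (0.046). With median centring it held for Cyc1 (-0.0024) and Ndufv1 (-0.00051), and with quantile normalization for Cox6b1 (0.0056) and Ndufs8 (0.0027). Scaling to the hybridisation controls turned Atp5g3 (0.11), Cox4i1 (0.13), Cox6b1 (0.14), Cox7a2l (0.14), Ndufa6 (0.054), Ndufs7 (0.13), Ndufs8 (0.14), Sdhb (0.13), Sdhc (0.044) and Uqcrc2 (0.10), and brought Ndufaf6 to -0.011 and Gabpb1 to -0.0035. Poly-A scaling turned Atp5a1 (-0.0073), Atp5b (-0.0014), Atp5c1 (-0.0042), Cox6a2 (-0.0039), Cyc1 (-0.014) and Ndufv1 (-0.012). With an array left out the ranges were Cox6b1 -0.0396 to 0.0157, Cox7a2l -0.048 to 0.022, Cyc1 -0.0063 to 0.035, Atp5a1 -0.026 to 0.051, Ndufs7 -0.044 to 0.023, Ndufs8 -0.075 to 0.039, Atp5g2 -0.013 to 0.05, Cox6a1 -0.0179 to 0.0902, Cox8c -0.0198 to 0.0763, Atp5c1 -0.0032 to 0.034, Atp5g1 -0.017 to 0.086, Atp5k -0.019 to 0.13, Cox8a -0.029 to 0.097, Ndufv2 -0.000713 to 0.0598, Uqcrc2 -0.0896 to 0.00331, Cox4i1 -0.056 to 0.0074, Cox7a1 -0.021 to 0.11, Sdhb -0.036 to 0.0012. Beyond array choice the cause was not tested. With 3 arrays a group, some changes past 1.2-fold were not called either, such as Sco2 (1.22-fold) and Ttc19 (1.23-fold).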
